A study of Mus musculus with 10 samples.

Results

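The Serpin genes are described here in adipocyte precursors (APs) cultured with or without IL-4. Every gene whose symbol begins with Serpin in at least 1 of the 6 mRNA-seq libraries was taken, whatever its level, which gave 43 of the 18384 genes listed. APs came from the subcutaneous white adipose tissue of C57BL/6J mice, were depleted of CD45- and CD31-positive cells, and were then selected for SCA-1. Control APs (replicates 1 to 3) and IL-4-treated APs (replicates 4 to 6) were both cultured in serum-containing medium. The treated cultures received the type 2 cytokine IL-4, and the study's methods give 4 days of incubation where nothing else is stated. No transgene or deletion is given for any of these cells, and the labels do not say whether the 3 libraries of a group come from separate animals, so the p-values measure the spread between these libraries, which may be technical.

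Serpins are proteins with a common fold and an exposed reactive loop. In the inhibitory members a serine protease, or more rarely a cysteine protease, cuts the loop as if it were a substrate and is then trapped in a covalent complex, which uses up both. Secreted serpins restrain blood clotting, fibrinolysis, complement and proteases released by leukocytes, the clade B serpins protect the inside of cells from granule proteases, and a few members have lost inhibition, such as the collagen chaperone Serpinh1. In fat, Serpinf1 (pigment epithelium-derived factor) is a secreted product of fat cells and stromal cells.

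After IL-4, 7 Serpina3 genes of a chromosome 12 cluster rose, most of them from levels below 1 FPKM, and the abundant Serpinf1 and Serpinh1 remained the most highly expressed members in both groups. Of the 43 genes, 22 passed the filter on low counts and were tested. With edgeR's quasi-likelihood test at an adjusted p under 0.05, 17 were higher in IL-4-treated APs, against a background of 19.0% of the 14009 genes tested, and 3 were lower, against 18.4%. Beyond a 2-fold change, 12 were higher (background 5.77%) and 1 was lower (background 5.26%). The groups did not overlap for 20 of the 22 genes, whereas 50.4% of all genes tested showed no overlap. The median log2 fold change of the 22 genes was 1.10, also with Serpina3m at the lowest value its zero control counts allow, beside 0.00256 over all genes. A gene that passes the filter only through its high group had to differ, and that applies to Serpina3c, Serpina3f, Serpina3m and Serpinb2. In a bulk library, fewer cells of a type and less RNA per cell cannot be told apart.

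The libraries held 28526782 to 28674604 expected counts in control APs and 28914003 to 29057787 in IL-4-treated APs. IL-4 replicate 6 stood apart from the other IL-4 libraries, with a chi-square per gene of 45.8 and 36.7 against them beside 2.49 between replicates 4 and 5. It was the highest IL-4 library for 14 of the 22 Serpin genes, and for 43.8% of all genes tested. In the control group replicate 3 stood apart, with 10.7 and 16.8 beside 3.77. It also held 77 expected counts of Chil3, beside 4 and 9 in control replicates 1 and 2. In each IL-4 library Chil3 had at least 58292.54, and the reason for the difference between control libraries was not tested. With IL-4 replicate 6 or control replicate 3 left out in turn, the Serpin counts were the same as with all 6, at 17 higher and 3 lower.

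**Figure D1:**
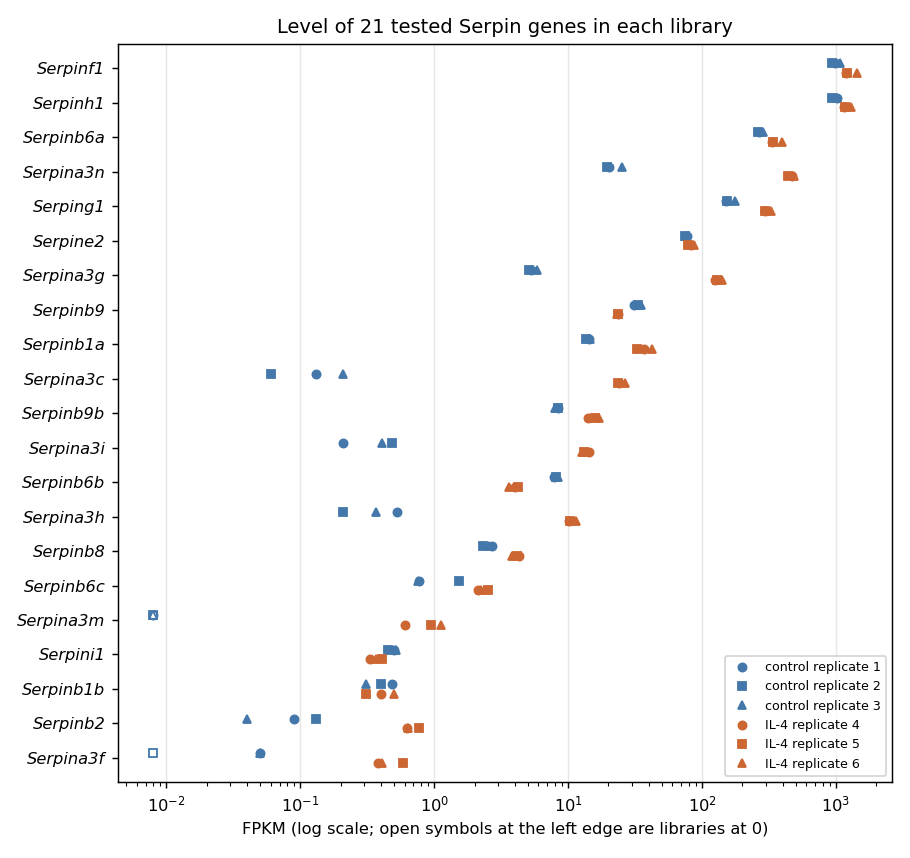
FPKM (fragments scaled to transcript length and library size, log axis) of 21 tested Serpin genes, 1 symbol per library, with control libraries in blue and IL-4 libraries in orange and open symbols for libraries at 0. Serpinf1 and Serpinh1 stand at the top in both groups, the Serpina3 genes lie far to the right in the IL-4 libraries.

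The Serpina3 genes are the mouse relatives of human alpha-1 antichymotrypsin, where 1 human gene corresponds to a whole series of mouse genes. The steepest rises of the family were seen here, so the promoter sequences are shown first. In the mm10 assembly (GRCm38.p6, RefSeq annotation) 28 Serpin genes lie side by side on chromosome 12 between 103616675 and 104414334, a span of 797.7 kb, and 15 of them had a read in at least 1 library. The 7 that were tested, all Serpina3 genes, occupy the last 267.4 kb (104146907 to 104414334). The promoter windows of RefSeq, from 250 bases before to 50 after each annotated start, were searched on both strands for the 2 spacings of the palindrome to which STAT proteins bind, the IL-4-activated STAT6 being known for TTCNNNNGAA and other STATs for TTCNNNGAA. Promoter entries matched 37 of the 43 members, and Serpina3h and Serpina3m have none. In each other Serpina3 promoter the 30-base window most like that around the Serpina3g match was taken, without gaps and wherever it lay. The windows of Serpina3a and Serpina3j matched it at 15 of 30 bases, lacked TTCNNNGAA and are not shown. Those of 5 genes that rose, and of Serpina3b, which stayed at or near 0 reads, are shown. They differ within 9 bases, given in capitals, that hold TTCNNNGAA in some genes and not in others. The capitals begin 33 bases before an annotated start in Serpina3g and 102 to 123 bases before it in the others. All windows are written 5′ to 3′ on the strand of the gene.
Serpina3g, chr12:104236104-104236133, plus strand: taagttatagTTCCCAGAAatcacccggtc
Serpina3i, chr12:104263010-104263039, plus strand: taagtgcttgTTCCCAGAAatcacccagtc
Serpina3f, chr12:104214413-104214442, plus strand: tcagttctatTTCCTAGAAatcacccattt
Serpina3n, chr12:104406575-104406604, plus strand: caaatccatgTTACCAGAAatcatccagtc
Serpina3c, chr12:104153973-104154002, minus strand: taaatccataTTACCAGAAatcatccagtc
Serpina3b, chr12:104127863-104127892, plus strand: taagtccttgTCACCATAAatcatcctatc

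The windows of Serpina3i and Serpina3f match that of Serpina3g at 26 and 23 of 30 bases, and those of Serpina3n, Serpina3c and Serpina3b at 21. Serpina3g, Serpina3i and Serpina3f thus carry TTCNNNGAA in this window, while Serpina3n and Serpina3c, which also rose, do not. Serpina3i alone among the Serpina3 genes with an entry has the other spacing, 34 bases before an annotated start in the window chr12:104263078-104263107, shown with the 10 bases of the motif in capitals.
Serpina3i, plus strand: tcatcagcatTTCCTAAGAAgtgggaggag
TTCNNNGAA was found in 8.30% of the 32851 annotated promoters and in 7 of the 42 of Serpin genes (16.7%). These belong to 5 of the 37 genes with an entry, namely Serpina3f, Serpina3g, Serpina3i, Serpinb2 and Serpinb6a. The matches of Serpina3f are the same site seen from different annotated starts, and so are those of Serpinb2. TTCNNNNGAA was found in 6.95% of all promoters and in 6 of the 42 (14.3%), which belong to 6 genes, of which Serpina3i and Serpinb6a rose, Serpinb1b was not called, and Serpina5, Serpina12 and Serpinb7 were not tested. The whole windows of Serpina3c and Serpina3n were the most alike, with 89.9% identical bases, whereas those of the other Serpina3 pairs ranged from 43.3% to 68.6%. A match is a run of letters and not a measured binding site.

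Serpina3n, a secreted inhibitor of granzyme B and of leukocyte elastase and cathepsin G, was the most abundant of the group. Its FPKM was 20.22, 19.64 and 25.19 in control APs and 473.52, 439.4 and 488.32 after IL-4. Every IL-4 library thus lay far above every control library. The log2 fold change was 4.60 (95% interval 4.35 to 4.86, adjusted p = 1.01e-07). Serpina3g, which inhibits cysteine cathepsins inside the cell, had an FPKM of 5.24, 5.07 and 5.90 in control APs and 125.93, 128.73 and 140.24 after IL-4. Its log2 fold change was 4.78 ± 0.079 (SE, adjusted p = 5.02e-08), and the 3 libraries of each group were close to each other.

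Serpina3c showed the steepest rise among Serpin genes with a read in every control library. It had 6, 3 and 10 expected counts in control APs and 1133, 1107 and 1261 after IL-4, for a log2 fold change of 7.65 (interval 7.22 to 8.08, adjusted p = 1.01e-07). In FPKM it went from 0.133 ± 0.0751 (SD, n = 3) to 24.8 ± 1.67. Serpina3i had 13, 29 and 24.99 expected counts in control APs and 874.91, 811.06 and 791.93 after IL-4, a log2 fold change of 5.36. Serpina3h is annotated by RefSeq as a transcribed pseudogene, so its reads report a transcript and not a known inhibitor. It had 30, 12 and 21 expected counts in control APs and 581.12, 591.3 and 661.19 after IL-4, a log2 fold change of 5.01.

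The remaining genes of the group had almost no reads without IL-4. Serpina3m had 0 reads in each of the 3 control libraries and 28, 44 and 52 after IL-4, which makes it at least 15.3-fold higher when each control library is set at a floor of 3 counts (adjusted p = 3.78e-04). Serpina3f had 3, 0 and 3 expected counts against 24.05, 33.98 and 26.03. The ratio of its summed reads, scaled for depth, was 15.6, with a 95% interval of 6.87 to 43.7 that covers counting error only. Serpina3a, Serpina3b and Serpina3j had at most 2 reads in any library, although they lie in the same cluster, and Serpina3j lies between Serpina3i and Serpina3m.

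With Serpina3m at its bound, 5 Serpin genes exceeded a log2 fold change of 4, all of them Serpina3 genes. On fitted values, without any bound, 6 Serpin genes did so, beside 0.75% of all genes tested. Of these, Serpina3c and Serpina3m passed the filter only through the IL-4 group and had to differ. The 10 Serpina3 genes together summed to 26.4, 25.5 and 32.1 FPKM in control APs and 649.0, 616.7 and 681.1 after IL-4. Their makeup moved less than their sum. Serpina3n gave 77.4% of it in control APs and 72.0% after IL-4, and Serpina3g gave 19.4% and 20.3%. The share of Serpina3c was 0.461% and then 3.82%. When the reads of the group were summed before fitting, the log2 fold change was 4.70 (adjusted p = 8.27e-08), 26.0-fold.

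These paralogs share sequence, and the expected counts of Serpina3f, Serpina3g, Serpina3h and Serpina3i were fractional in at least 1 library, which marks reads that the authors' counting divided between genes. Of the stretches of 50 bases in their RefSeq transcripts, 17.0% in Serpina3h, 14.2% in Serpina3g, 12.1% in Serpina3i and 7.73% in Serpina3f also occur in another Serpin gene. In Serpina3n the share was 6.32%, in Serpina3c 4.81% and in Serpina3m 3.06%. The division of reads among Serpina3f, Serpina3g, Serpina3h and Serpina3i is therefore less certain than the rise of their sum.

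**Figure D2:**
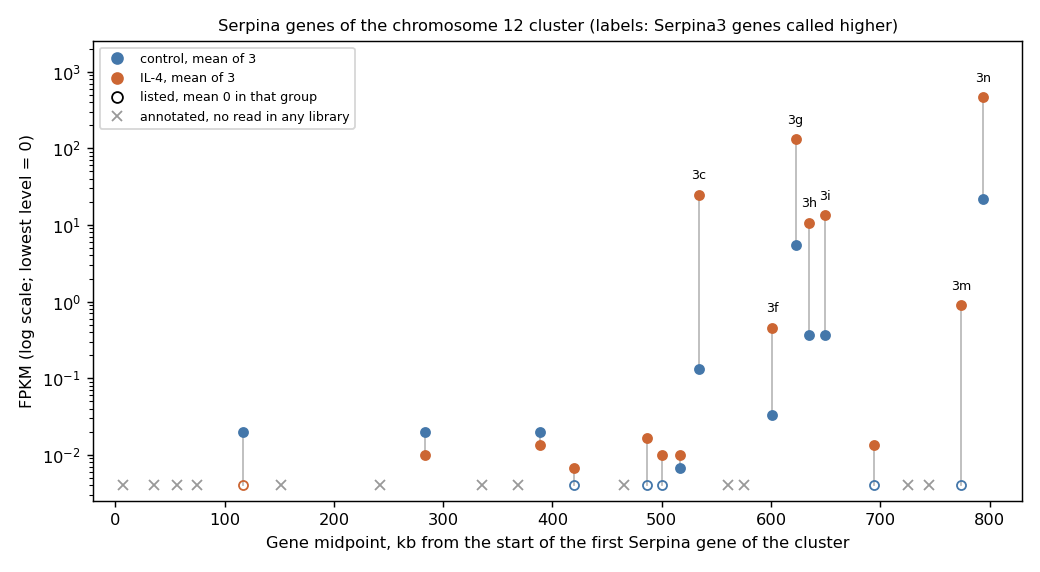
Mean FPKM (log axis, lowest level for 0) of the 28 Serpin genes annotated in the chromosome 12 cluster against the distance of each gene's midpoint from the cluster's start in kb, with control in blue, IL-4 in orange and crosses for genes with no read. The 7 genes labelled rose after IL-4 and lie at the far end of the cluster, with genes at or near 0 between them.

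Genes beside the cluster were called at about the share seen over all genes. Of the genes that are no Serpins and lie within 500 kb of the cluster, 10 were tested, 2 were higher and 2 lower, beside 19.0% and 18.4% of all genes tested, and their log2 fold changes ran from -3.30 to 1.22. Gsc, the nearest tested gene past Serpina3n, starts at 104471209 and rose by 1.22 (adjusted p = 0.00111). Dicer1 and Clmn, farther on that side, were not called (adjusted p = 0.336 and 0.232). All other tested neighbours lie before the start of the cluster, away from the Serpina3 genes that rose. The Serpina1 genes at the other end of the cluster, which encode alpha-1 antitrypsin in the liver, gave at most 1 read in any library. Serpina5 (protein C inhibitor), Serpina9 and the insulin-sensitising adipokine Serpina12 (vaspin) had at most 2 reads.

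Among the serpins that act on plasminogen activators, Serpine2 and Serpinb2 rose and Serpini1 was not called. Serpine2 (protease nexin 1), a cell-surface inhibitor of thrombin and urokinase, is located on chromosome 1 (79794317 to 79858665). Its FPKM was 77.68, 75.06 and 75.48 in control APs and 82.25, 78.44 and 86.56 after IL-4. Its log2 fold change of 0.29 (interval 0.16 to 0.42, adjusted p = 0.00405) was small, and with library totals as the only scaling it was 0.12 (adjusted p = 0.136). Serpinb2 (plasminogen activator inhibitor 2) had 5, 7 and 2 reads in control APs and 35, 43 and 36 after IL-4, a log2 fold change of 3.14 (interval 2.36 to 3.93, adjusted p = 2.03e-04). At 0.680 ± 0.0781 FPKM in IL-4-treated APs it remained far below Serpine2. Serpini1 (neuroserpin), an inhibitor of tissue-type plasminogen activator in neurons, had 44, 39 and 46 reads against 29, 36 and 33, and its log2 fold change of -0.24 (interval -0.64 to 0.16, adjusted p = 0.328) was not called.

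The genes of the proteases themselves were higher after IL-4. Plau (urokinase) rose by a log2 fold change of 0.62 (adjusted p = 1.20e-04) and Plat (tissue-type activator) by 0.51 (adjusted p = 1.40e-04). Plaur, the urokinase receptor, rose by 0.45 (adjusted p = 0.00943). Serpine2 FPKM divided by the summed FPKM of Plau and Plat was 0.873, 0.816 and 0.788 in control libraries and 0.677, 0.648 and 0.705 in IL-4 libraries, so that the ratio was lower in each IL-4 library than in any control library. This is a ratio of mRNA levels, chosen after the values were seen, and says nothing of active protein. Plg, the plasminogen that these enzymes activate, is made in the liver and was at most 0.04 FPKM in any library.

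**Figure D3:**
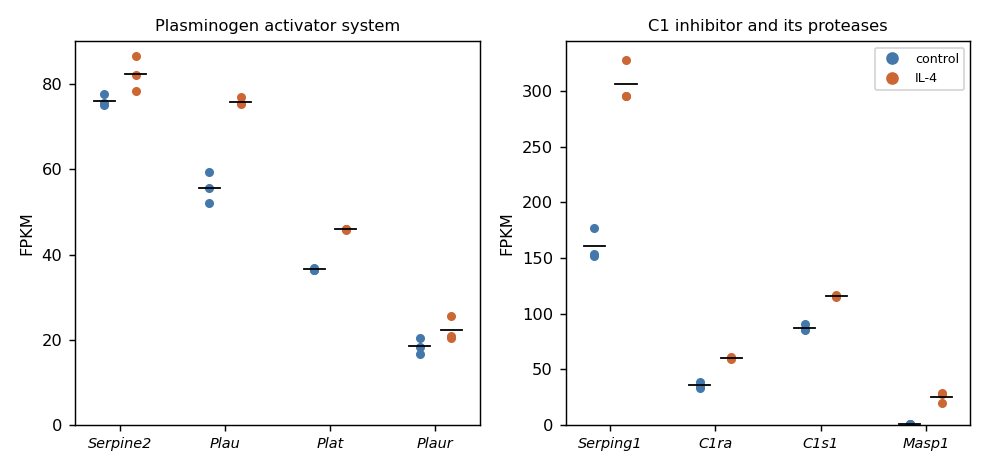
FPKM of Serpine2, Plau, Plat and Plaur (left) and of Serping1, C1ra, C1s1 and Masp1 (right) in each control library (blue) and IL-4 library (orange), with the group mean as a bar. Plau and Plat rise in every IL-4 library while Serpine2 stays between 75 and 87 FPKM, and Serping1 rises together with C1ra, C1s1 and Masp1.

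Serping1 encodes C1 inhibitor, which blocks the complement proteases C1r and C1s, the lectin-pathway protease MASP1, plasma kallikrein and factor XII. The gene is located on chromosome 2 (84765360 to 84775444). Its FPKM was 151.58, 153.21 and 176.44 in control APs and 295.32, 295.58 and 328.19 after IL-4, with no overlap. The log2 fold change was 1.11 (interval 0.94 to 1.28, adjusted p = 1.46e-05). Its targets C1ra and C1s1 rose too, by 0.93 (adjusted p = 1.28e-05) and 0.59 (adjusted p = 9.27e-05). The ratio of Serping1 FPKM to the sum of both was 1.27, 1.28 and 1.37 in control libraries and 1.69, 1.67 and 1.86 in IL-4 libraries. Masp1 rose from 0.837 ± 0.127 to 25.2 ± 5.14 FPKM (SD, n = 3), whereas Masp2, Klkb1 (plasma kallikrein) and F12 did not exceed 0.15 FPKM in any library.

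The 2 most abundant members rose by less than 2-fold. Serpinf1 encodes pigment epithelium-derived factor, a secreted protein that binds the adipose triglyceride lipase Pnpla2 and does not inhibit proteases. It is located on chromosome 11 (75410029 to 75422623). Its FPKM was 989.49, 930.88 and 1075.36 in control APs and 1185.03, 1201.19 and 1442.71 after IL-4. The lowest IL-4 library was above the highest control library, and the log2 fold change was 0.53 (interval 0.33 to 0.73, adjusted p = 0.002). Limma on log2(FPKM + 1) gave 0.35 (adjusted p = 0.0504).

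Serpinh1 encodes HSP47, the collagen-specific chaperone of the endoplasmic reticulum. It is located on chromosome 7 (99345375 to 99353239). Its FPKM was 1013.51, 942 and 1022 in control APs and 1142.87, 1173.05 and 1285.35 after IL-4. The log2 fold change was 0.45 (interval 0.30 to 0.60, adjusted p = 0.00108), and on log2(FPKM + 1) it was 0.27 (adjusted p = 0.0632). In a list of 22 genes for collagen hydroxylation, folding and export, 19 were higher, 1 lower and 2 not called, with a median log2 fold change of 0.39. Over all genes tested, 19.0% were higher and 18.4% lower. Plod2 and Plod1, which hydroxylate collagen lysines, rose by 1.74 and 1.19, P3h2, a prolyl 3-hydroxylase, rose by 0.89, and P4ha3, a subunit of prolyl 4-hydroxylase, fell by 0.73. With library totals as the only scaling, 11 of the 22 were higher, and under that scaling the median of all genes tested was -0.17, against which small changes such as those of Serpinh1, Serpinf1 and Serpine2 have to be read.

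The clade B serpins lack a classical signal peptide and act mostly inside cells. Of the 18 listed, 9 were tested, of which 6 rose, 2 fell and 1 was not called, beside 19.0% higher and 18.4% lower over all genes tested. Serpinb6a, an inhibitor of cathepsin G, was the most abundant, with an FPKM of 268.21, 261.95 and 285.34 in control APs and 332.32, 338.98 and 394.83 after IL-4. It rose by a log2 fold change of 0.57 (interval 0.40 to 0.73, adjusted p = 5.04e-04). The gene model of Serpinb6a on chromosome 13 encloses that of Nqo2 and overlaps that of Ripk1. Overlap of exons was not examined, and whether the libraries keep strand is not stated. The expected counts of Serpinb6a were whole in every library, and whether reads of those genes were assigned to Serpinb6a was not tested.

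Serpinb1a, an inhibitor of neutrophil elastase, cathepsin G and proteinase 3, had an FPKM of 14.2, 13.5 and 14.46 in control APs and 36.69, 32.68 and 42.31 after IL-4. Its log2 fold change was 1.58 (interval 1.37 to 1.79, adjusted p = 6.06e-06). Its paralog Serpinb1b was near 0.40 FPKM in both groups and was not called, with a log2 fold change of 0.18 (interval -0.45 to 0.81, adjusted p = 0.653). The interval of Serpinb1b lies below that of Serpinb1a, though the difference between the 2 genes was not tested.

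Paralogs of the Serpinb6 and Serpinb9 groups moved in opposite directions. Serpinb6b fell from 8.13 ± 0.321 to 3.95 ± 0.316 FPKM (SD, n = 3), a log2 fold change of -0.87 (interval -1.09 to -0.65, adjusted p = 2.11e-04). Serpinb6c rose, with an FPKM of 0.77, 1.54 and 0.76 in control APs and 2.12, 2.51 and 2.23 after IL-4, by 1.33 (interval 0.71 to 1.95, adjusted p = 0.00557). Control replicate 2 was higher than the other control libraries, and the log2 fold change without it was 1.75 (adjusted p = 6.81e-04).

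Serpinb9, the granzyme B inhibitor that protects cytotoxic and antigen-presenting cells, had an FPKM of 31.28, 33.49 and 35.01 in control APs and 23.51, 23.71 and 23.06 after IL-4. It fell by 0.33 (interval -0.47 to -0.19, adjusted p = 0.00373). Serpinb9b rose, with an FPKM of 8.44, 8.39 and 7.97 against 13.99, 15.95 and 17.07, by a log2 fold change of 1.10 (interval 0.90 to 1.29, adjusted p = 3.08e-05). The 4 Serpinb9 genes summed gave -0.06 (adjusted p = 0.459), and the 3 Serpinb6 genes summed, in which Serpinb6a predominates, gave 0.54 (adjusted p = 6.16e-04). Less than 5% of the 50-base stretches of Serpinb6a, Serpinb6b, Serpinb6c, Serpinb9 and Serpinb9b occur in another Serpin gene, and none of their counts was fractional. Serpinb8, an inhibitor of furin-like proteases, rose by 0.88 (interval 0.63 to 1.12, adjusted p = 3.56e-04), from 2.52 ± 0.196 to 4.11 ± 0.255 FPKM.

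**Figure D4:**
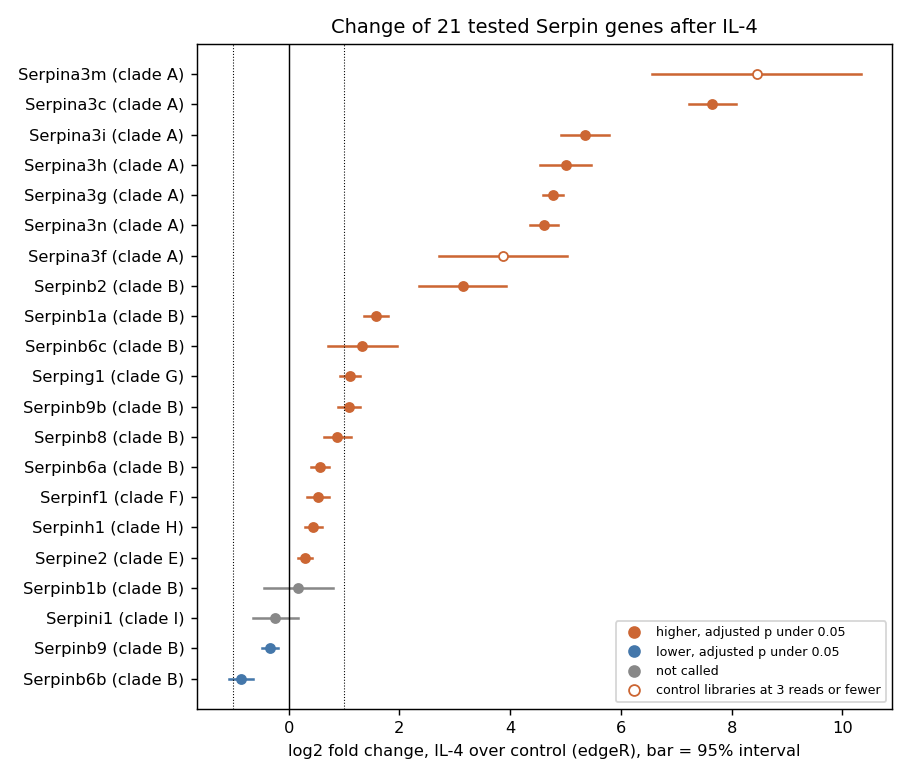
Log2 fold change (IL-4 over control, edgeR) of 21 tested Serpin genes with 95% intervals, orange for higher, blue for lower and grey for not called, with dotted lines at a 2-fold change and open symbols for genes at 3 reads or fewer in each control library, whose fitted value is no bound. The 7 clade A genes stand at the top with Serpinb2, and Serpinb6b, Serpinb9 and Serpini1, which was not called, lie below 0.

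The remaining 21 members were not tested. Of these, 16 had at most 3 reads in every library (8 of clade A, 6 of clade B, and Serpind1 and Serpine3), and the other 5 reached at most 17 reads. Among the plasma serpins, Serpinc1 (antithrombin) had 1 to 5 reads, Serpinf2 (alpha-2 antiplasmin) had 2 to 6, and Serpind1 (heparin cofactor II) had 0 to 2. Serpinb5 (maspin) and Serpinb12, both known from epithelia, had 2 to 9 and 2 to 8 reads. Serpinb1c had 7, 4 and 4 reads in control APs and 6, 7 and 17 after IL-4. At these counts no change was detectable. RefSeq annotates 69 Serpin genes, and 26 of them were not listed in any library.

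The makeup of the family shifted with these changes. Serpin genes took 0.518% to 0.563% of expected counts in control libraries and 0.701% to 0.796% in IL-4 libraries. Of the summed Serpin FPKM, Serpinf1 gave 34.8% in control APs and 31.6% after IL-4, and Serpinh1 34.6% and 29.8%. Serpina3n went from 0.755% to 11.6% and Serpina3g from 0.188% to 3.27%. Serping1 went from 5.60% to 7.61%.

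**Figure D5:**
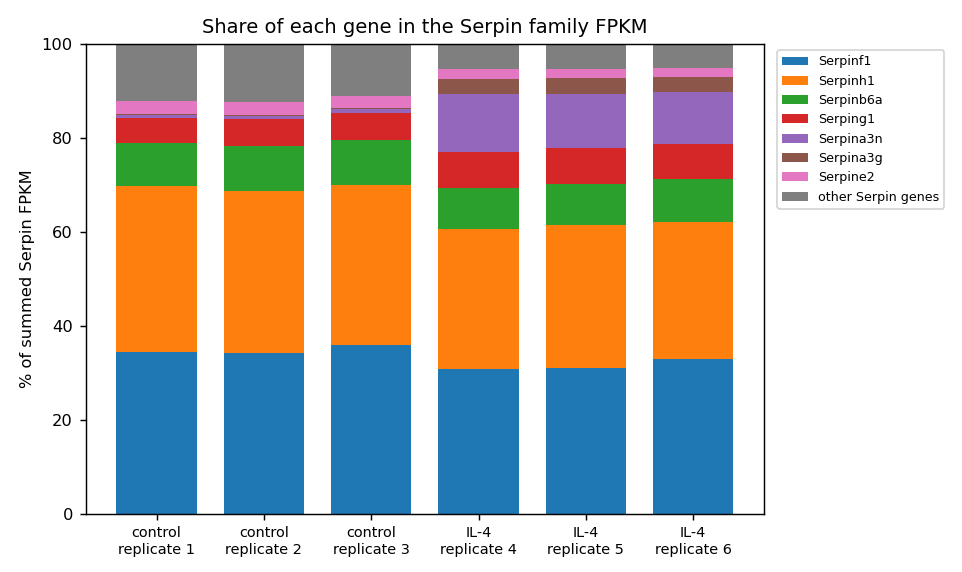
Share of each gene in the summed FPKM of all Serpin genes (percent, stacked bars, 1 per library), with all genes that are not named shown as other. Serpina3n grows from below 1% to above 11%, and Serpinf1 and Serpinh1 together exceed 60% in every library.

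The proteases on which secreted serpins act were listed next. Of 32 genes for extracellular serine proteases and their receptors, 20 were tested, 12 were higher, 1 was lower (St14, matriptase) and 7 were not called, with a median log2 fold change of 0.49. For this list and those that follow, the share over all genes tested was 19.0% higher and 18.4% lower. Among genes with a mean of at least 100 normalised counts the steepest rises were those of F10 (coagulation factor X), at 8.09 and from 0.0467 to 11.2 FPKM, and F7 (factor VII), at 6.79 and from 0.13 to 12.9 FPKM. F10 had 6, 1 and 3 expected counts in control APs, and F7 had 8, 8 and 4. Both F10 and F7 thus passed the filter only through the IL-4 group and had to differ. Their plasma inhibitor Serpinc1 had at most 5 reads. Outside the serpin family, Tfpi2, a Kunitz inhibitor of plasmin and of the factor VII complex, rose by 3.03, from 9.40 to 67.9 FPKM. In the list of 35 non-serpin inhibitors and Agt, a non-inhibitory relative of the serpins, 23 were tested, 10 were higher, 5 lower and 8 not called, with Timp2 and Timp1 up by 0.69 and 0.66 and Timp3 down, at -1.03.

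Granule and intracellular proteases, the targets of clade B and of Serpina3g, were listed in the same way. Of 27 genes 15 were tested, 7 were higher, 4 lower and 4 not called. Among those called, Gzmc and Gzme passed the filter only through the control group and Tpsab1 only through the IL-4 group. These genes had to differ. The lysosomal cathepsins Ctsk, Ctsl and Ctsh rose by 1.91, 1.35 and 1.10, and Ctsc fell by 1.62. Elane (neutrophil elastase), a target of Serpina3n and Serpinb1a, was not listed in any library, and Ctsg (cathepsin G) was at most 0.07 FPKM. Prtn3 (proteinase 3), a target of Serpinb1a, was present at 0.34 to 0.91 FPKM and was not called (log2 fold change 0.68, adjusted p = 0.186). Gzmb (granzyme B), a target of Serpina3n, was at most 0.1 FPKM. Of 20 cofactors, clearance receptors and heparan sulfate proteoglycans, 9 were higher, 5 lower and 6 not called. Vtn (vitronectin) rose by 1.79 at a low level of at most 0.69 FPKM. With 9, 10 and 12 expected counts in control APs, Vtn passed the filter only through the IL-4 group. Lrp1, the receptor that clears serpin and protease complexes, was not called (log2 fold change 0.09, interval -0.41 to 0.60, adjusted p = 0.773). Its FPKM was 230.48, 257.08 and 185.33 in control APs and 254.17, 236.96 and 144.86 after IL-4, so a change within that interval was not resolved. Vldlr rose by 0.80 and Lrp8 fell by 1.98.

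Markers of cell types were read beside these results. The AP markers Pdgfra (53.39 to 57.15 FPKM in control APs) and Ly6a (108.06 to 131.28), the gene for SCA-1, were present in every library and rose by 0.54 and 1.20, and 4 of 8 AP markers rose and 2 fell. Markers of macrophages were also present in cells depleted of CD45. Their sum over 12 genes ranged from 3521 to 4537 FPKM in control libraries and 1408 to 1857 in IL-4 libraries, and 10 of the 12 fell, Mrc1 rose and Cd68 was not called. Their part in the changes of Serpinb9 and Serpinb6b, or of any other Serpin gene, was not tested. Neutrophil markers summed to at most 0.71 FPKM, with Elane and Ngp not listed, lymphocyte markers to at most 0.15, with Cd3e and Cd3d not listed, and mast cell and eosinophil markers to 0.39 to 0.45 and then 0.69 to 0.92, with Fcer1a and Epx not listed. Markers of mature adipocytes summed to 32.9 to 38.8 FPKM in control APs and 55.0 to 78.6 after IL-4, almost all of it Fabp4, with Cidec and Lep not listed. Endothelial markers summed to 11.98 to 12.44 and 9.09 to 9.74, and mesothelial and epithelial markers to 7.70 to 9.30 and 10.1 to 12.4.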

How the data were processed

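mRNA-seq libraries of 3 control and 3 IL-4-treated AP cultures were used, and groups and replicate numbers were taken from the sample labels. Small RNA libraries of the series were not analysed here. Poly-A RNA was sequenced on the BGISEQ-500 platform, SOAPnuke was used to clean the reads, and the authors quantified genes with Bowtie2 and RSEM. HISAT, StringTie and the mm10 build are also named in the submitters' processing notes. The authors deposited expected counts per gene, which are not normalized, and 87.0% of which are whole. The deposited FPKM were scaled by the authors to transcript length and library size. A gene with no row in a library was taken as 0. A row naming no gene (at most 2.25e-04% of counts) was left out.

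Rounded counts passed through filterByExpr at a minimum of 10 counts and a total of 15, were scaled with TMM, and were compared with the quasi-likelihood test of edgeR 4.0.16 (R 4.3.3), and p-values were adjusted by Benjamini-Hochberg over the 14009 tested genes. Normalised counts are on the scale of a library of mean TMM-scaled size. Intervals are 95% intervals. A group at 0 was set at a floor of 3 counts per library for its bound, and bounds and ratio intervals cover counting error only. The alternatives were DESeq2 1.42.0, upper-quartile scaling, library totals, limma 3.58.1 on FPKM in log2 with a pseudocount of 1 or 0.1, paralogs summed, no filter, and each library left out in turn. The tests were tried on simulated data. The values of 1 Serpin gene and of some listed genes are not reported here, although they are included in the counts. Values per library are given for Serpin genes called beyond 2-fold and for the 10 with the highest mean FPKM. The members, the lists of proteases, partners and markers, and the tests were chosen with earlier results of these data known. Ratios to target genes, the neighbours of the cluster, motif windows and genes named from the lists for their role were chosen after values were seen. From the lists, genes were otherwise named by size of change among called genes with a mean of at least 100 normalised counts. Promoter sequences are from RefSeq (GRCm38.p6).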

Additional observations from a re-analysis of the deposited data

How the results depend on the processing

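No reversal of direction was seen for any of the 22 tested Serpin genes under the 12 alternatives, and 258 of 264 single-gene values kept their side of the threshold. The exceptions were Serpine2 at 0.12 with library totals (adjusted p = 0.136) and 0.11 with limma on log2(FPKM + 1) and log2(FPKM + 0.1) (adjusted p = 0.139 and 0.144), Serpinf1 at 0.35 on log2(FPKM + 1) (adjusted p = 0.0504), and Serpinh1 at 0.27 on both FPKM scales (adjusted p = 0.0632 and 0.0593). With paralogs summed into 1 feature per group, which leaves fewer features, 9 were higher, 1 was lower and 4 were higher beyond 2-fold. On log2(FPKM + 1), where both the scaling and the pseudocount differ, 6 were higher beyond 2-fold. With library totals and on log2(FPKM + 0.1), 10 were higher beyond 2-fold, in place of 12, and 2 were lower. Serping1 and Serpinb9b were the genes below 2-fold there. The median of all genes tested was -0.17 with library totals, -0.13 on log2(FPKM + 1) and -0.17 on log2(FPKM + 0.1). On these scales 11, 10 and 10 of the 22 collagen-folding genes were higher, in place of 19. No paired analysis was possible because the control and IL-4 libraries share no replicate numbers. Depth limits Serpina3f, Serpina3m, Serpinb2 and the 21 genes not tested.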
